A study of Homo sapiens with 9 samples.

Results

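Small nucleolar RNAs and their Cajal body relatives were followed on 9 arrays of Hep3B, a cell line from a human hepatocellular carcinoma. The members are all probe sets with 1 gene symbol that begins with SNORD, SNORA or SCARNA followed by a digit. There are 198 of them, for 192 symbols, among 19460 probe sets with 1 symbol and 33297 on the array. They comprise 115 probe sets for C/D box RNAs (SNORD), 64 for H/ACA box RNAs (SNORA) and 19 for Cajal body RNAs (SCARNA). Of the SNORD probe sets, 46 belong to the repeated SNORD113, SNORD114, SNORD115 and SNORD116 copies, and the remaining 69 are called the other SNORD set here. The 2 probe sets of SNORA10 held the same signal on every array, so they are 1 measurement listed 2 times.

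The 3 groups of 3 arrays were untreated Hep3B cells, Hep3B cells transfected with a nonsense siRNA and Hep3B cells transfected with an siRNA against YAP. Transfected cells were grown for 24 h, transfected with Oligofectamine and kept for a further 24 h, and total RNA was taken; no dose or siRNA sequence is given in the labels. For the untreated cells the labels give no time of harvest of their own, so transfection and time in culture cannot be told apart in comparisons with them. The sample titles carry the prefix HUH, although the cell line field and the descriptions say Hep3B, and the values cannot settle which is right. Hepatocyte and hepatoma markers such as ALB and AFP lay at or above the median signal in 8 of 8 cases. No label says whether the replicates were separate cultures, and each p-value therefore measures only the spread between these samples.

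Small nucleolar RNAs guide chemical modification of other RNAs by base pairing. C/D box RNAs direct methylation of ribose and H/ACA box RNAs direct pseudouridine formation, mostly in ribosomal RNA, while Cajal body RNAs act on the small nuclear RNAs of the spliceosome. In human cells most are cut out of introns of longer transcripts, many of them from ribosomal protein genes or from non-coding host genes such as GAS5 and SNHG1. YAP1 encodes YAP, a coactivator of transcription kept in check by Hippo signalling.

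The YAP1 transcript checked the labels. It read 8.78, 8.62 and 8.69 on the untreated arrays, 8.66, 8.75 and 8.68 after nonsense siRNA and 7.54, 7.52 and 7.48 after YAP siRNA. The 3 YAP siRNA arrays lay below all others. Relative to nonsense siRNA the log2 difference of YAP1 was -1.18 (SE 0.0549, limma adjusted p = 5.83e-09). By exact permutation, two-sided, p was 0.1, the minimum for 3 arrays against 3. Array medians over the tested probe sets ranged from 7.27 to 7.32.

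Member signals spread over most of the array's range, and the classes differed in how bright their probe sets were. The median of the mean log2 signal was 7.49 for the other SNORD set, 7.01 for SNORA and 7.10 for SCARNA, against 7.29 for all tested probe sets. At or above that median lay 41 of 69 other SNORD, 22 of 64 SNORA and 8 of 19 SCARNA probe sets. The brightest members were SCARNA17 at 10.77, which guides methylation of spliceosomal U12 and U4 RNA, and SNORD33 at 10.64. None of the 46 SNORD113 to SNORD116 copies reached the median, and all 46 lay below the lower quartile of 6.62, from 5.51 to 6.57. Signals of different probe sets do not give an order of abundance.

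**Figure D1:**
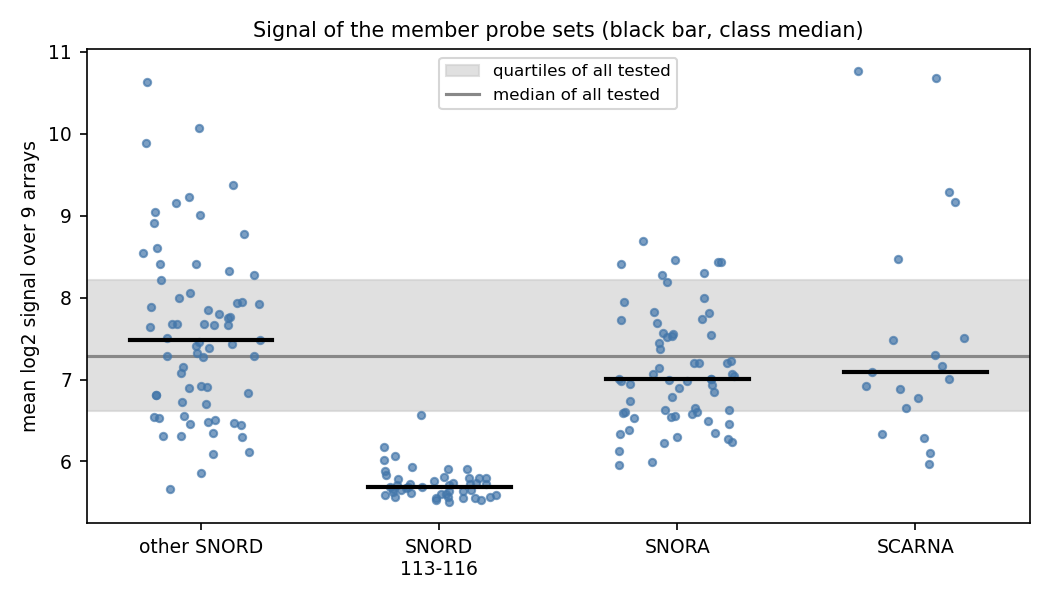
Mean log2 signal over the 9 arrays of each of the 198 member probe sets, by class, with the class median as a black bar and the quartiles and median of all 19460 tested probe sets as a grey band and line. The SNORD113 to SNORD116 copies sit between 5.51 and 6.57, below the grey line at 7.29.

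Several arrays stood apart from others of their own group in these RNAs, which bears on every comparison below. Each member was set against its own mean over the 9 arrays. In the other SNORD set the median deviation was 0.06, 0.02 and -0.16 on the untreated arrays, 0.14, -0.01 and 0.07 after nonsense siRNA, and 0.05, -0.01 and -0.14 after YAP siRNA, replicates 1 to 3 in that order. Untreated replicate 3 and YAP siRNA replicate 3 were the low arrays and nonsense siRNA replicate 1 the high one, and the 3 groups overlapped. On untreated replicate 3 only 7 of the 69 probe sets exceeded their own mean, and on YAP siRNA replicate 3 again 7 of 69, while on nonsense siRNA replicate 1 it was 62 of 69. The range of these medians within a group was 0.21 among untreated arrays, 0.16 after nonsense siRNA and 0.19 after YAP siRNA. The group means were -0.03, 0.07 and -0.04 and lay closer together than the arrays of a single group did. A mean of 3 arrays varies less than a single array, so this order alone does not weigh groups against replicates.

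The same 2 arrays were lowest for SNORA, with median deviations of -0.08 on untreated replicate 3 and -0.05 on YAP siRNA replicate 3. SNORA probe sets were highest on nonsense siRNA replicate 1, at 0.05. For SCARNA the median deviations lay between -0.05 and 0.05, and all 3 nonsense siRNA arrays were above the other 6. The SNORD113 to SNORD116 copies stayed between -0.03 and 0.02 on all arrays. Over all tested probe sets the medians lay between -0.02 and 0.02, with the 2 arrays low for SNORD at the upper end. MicroRNA probe sets, 189 in all, were at -0.03 on nonsense siRNA replicate 1 and -0.04 on replicate 3, where SNORD signals were high.

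**Figure D2:**
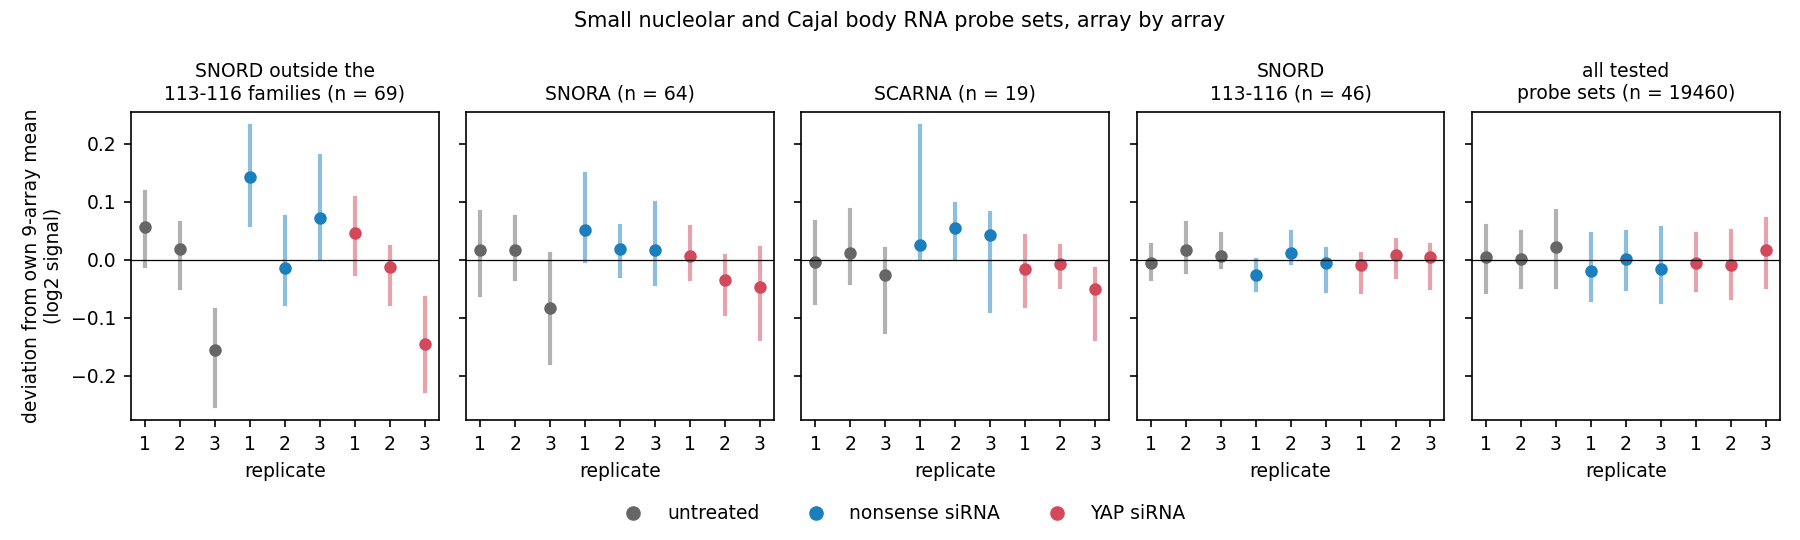
Median deviation of log2 signal from each probe set's own 9-array mean (points) and quartiles (bars), for each array, by class and for all 19460 tested probe sets. The 69 other SNORD probe sets fall to -0.16 on untreated replicate 3 and -0.14 on YAP siRNA replicate 3 and reach 0.14 on nonsense siRNA replicate 1, while the SNORD113 to SNORD116 copies stay within 0.03 of 0.

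A principal component analysis of the member deviations put 57.2% of the variance on a first component. Its loadings were 0.53 for nonsense siRNA replicate 1 and 0.39 for replicate 3, against -0.53 for untreated replicate 3 and -0.50 for YAP siRNA replicate 3. It thus separated arrays of a group from each other as much as it separated groups. The second component held 13.95% and set untreated replicate 1 (0.62) against nonsense siRNA replicate 3 (-0.54).

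The scatter within groups was also wider for the members than for other probe sets. The median SD within groups was 0.13 for the other SNORD set, 0.10 for SNORA and 0.09 for SCARNA, against 0.07 for all tested probe sets and 0.05 for the SNORD113 to SNORD116 copies. Above the upper quartile of signals it was 0.15 for the other SNORD set and 0.075 for all tested. The median half-width of the 95% interval of a group difference was 0.17 for the other SNORD set, so differences smaller than that were mostly not detectable with 3 arrays a group.

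YAP siRNA was set against nonsense siRNA to see which of these RNAs went with lower YAP1 among transfected cells. Most C/D box RNAs outside the repeated copies read lower after YAP siRNA, by a small amount, and few passed the test. The median log2 difference was -0.10 for the other SNORD set, with 61 of 69 below 0, -0.07 for SNORA with 48 of 64 below 0, and -0.06 for SCARNA with 14 of 19 below 0. It was 0.01 over all tested probe sets, 0.01 over the microRNAs and -0.00 over the 46 repeated copies. At an adjusted p under 0.05 (limma, Benjamini-Hochberg over 19460 probe sets), 4 of 198 members fell and 0 rose, where 4.46% of all tested probe sets passed, 2.57% as lower and 1.89% as higher. The 4 are 2.02% of the members, a smaller share than in the array as a whole. At an unadjusted p under 0.05, 21 members were lower and 0 higher, beside 7.7% and 7.86% of all probe sets. The arrays of the groups did not overlap for 26 members that were lower and 2 that were higher, beside 8.72% and 11.3% of all.

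**Figure D3:**
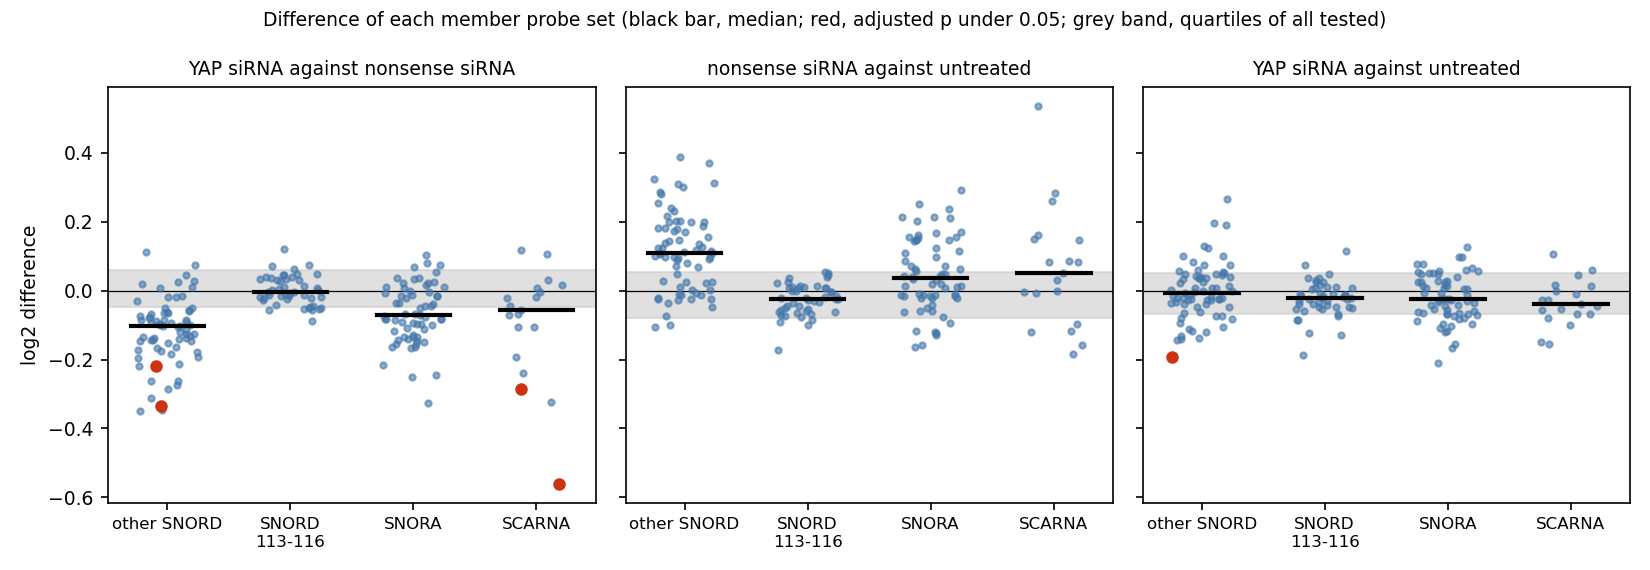
Log2 difference of each member probe set in the 3 comparisons, by class, with class medians as black bars, members at an adjusted p under 0.05 in red and the quartiles of all 19460 tested probe sets as a grey band. The other SNORD set has its median at -0.10 for YAP siRNA against nonsense siRNA, at 0.11 for nonsense siRNA against untreated and at -0.01 for YAP siRNA against untreated.

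The 4 probe sets that fell belong to 3 genes. SCARNA9, a Cajal body RNA that guides methylation of U2 small nuclear RNA, accounted for a pair of them. Its dimmer probe set read 6.50, 6.56 and 6.65 on the untreated arrays, 6.88, 6.80 and 6.81 after nonsense siRNA and 6.52, 6.62 and 6.49 after YAP siRNA. All 3 nonsense siRNA arrays lay above the other 6, and the untreated and YAP siRNA arrays overlapped. The difference between YAP and nonsense siRNA was -0.29 (SE 0.0578, limma adjusted p = 0.00852), that between nonsense siRNA and untreated cells 0.26 (adjusted p = 0.0585) and that between YAP siRNA and untreated cells -0.03 (adjusted p = 0.874).

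The brighter SCARNA9 probe set read 8.46, 8.37 and 8.06 on the untreated arrays, 9.06, 8.43 and 9.01 after nonsense siRNA and 8.41, 8.34 and 8.06 after YAP siRNA. Nonsense siRNA replicates 1 and 3 stood well above the rest, and nonsense siRNA replicate 2 lay among the untreated arrays. SCARNA9 in this probe set differed by -0.56 between YAP and nonsense siRNA (SE 0.142, limma adjusted p = 0.0337), which left 67.8% of the nonsense siRNA level, and by 0.54 between nonsense siRNA and untreated cells (adjusted p = 0.0928). With nonsense siRNA replicate 1 left out, the adjusted p for YAP against nonsense siRNA was 0.189 here and 0.0613 for the dimmer probe set, and neither passed.

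SNORD15B, a C/D box RNA held by the ribosomal protein gene RPS3, read 7.82, 7.72 and 7.63 on the untreated arrays. It read 8.10, 7.85 and 8.08 after nonsense siRNA and 7.85, 7.62 and 7.56 after YAP siRNA. The lowest nonsense siRNA array lay just above the highest YAP siRNA array. SNORD15B fell by 0.33 against nonsense siRNA (SE 0.0815, limma adjusted p = 0.0276), differed by 0.29 between nonsense siRNA and untreated cells (adjusted p = 0.108) and by -0.05 between YAP siRNA and untreated cells. Its call was lost in 4 of the 9 fits that left out 1 array, with an adjusted p of up to 0.153.

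SNORD53, a C/D box RNA held by WDR43, read 7.41, 7.40 and 7.32 on the untreated arrays, 7.59, 7.45 and 7.46 after nonsense siRNA and 7.34, 7.29 and 7.22 after YAP siRNA. Every nonsense siRNA array was above every untreated and YAP siRNA array, and the latter groups overlapped. SNORD53 fell by 0.22 against nonsense siRNA (SE 0.0577, limma adjusted p = 0.0429) and lost its call in 7 of 9 fits without 1 array, with an adjusted p of 0.244 without nonsense siRNA replicate 1. The members next in order, not passing, were SNORA7B at -0.25 (adjusted p = 0.0875), SNORA2B at -0.21 (adjusted p = 0.109) and SNORD20 at -0.28 (adjusted p = 0.112).

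**Figure D4:**
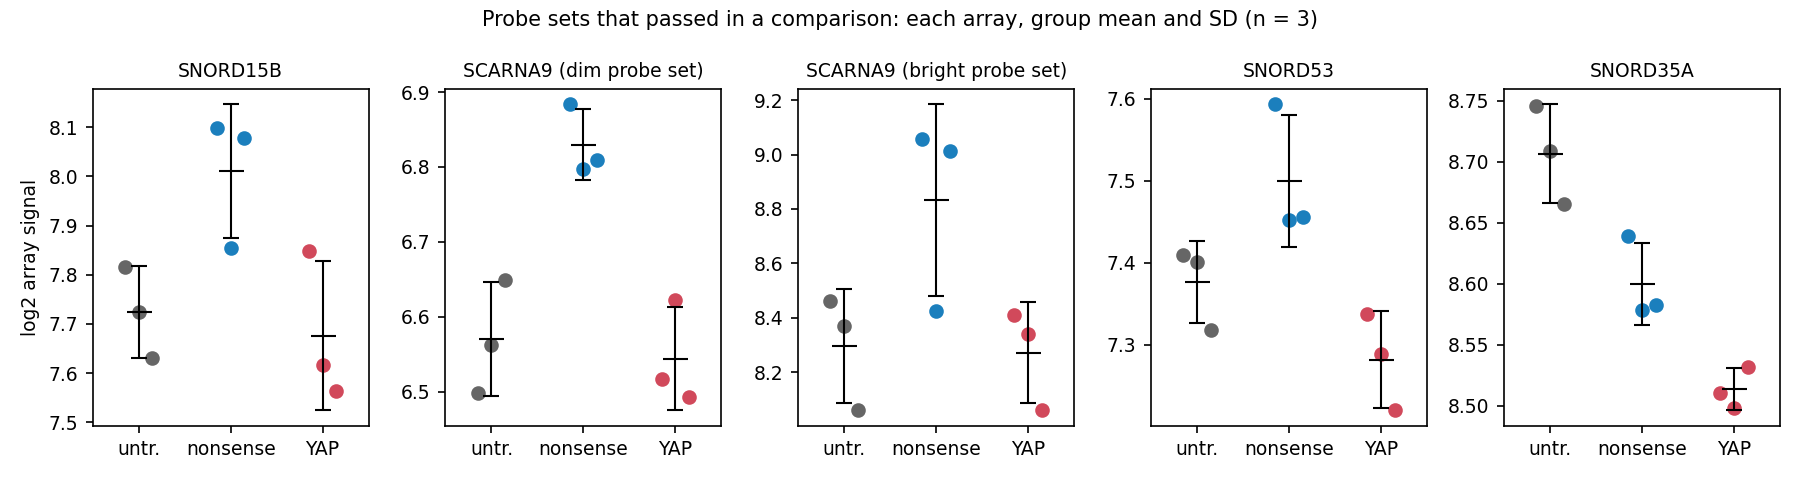
Log2 signal on each array, with group mean and SD (n = 3), for the 5 probe sets that passed in a comparison, with untreated arrays marked untr. For SCARNA9, SNORD15B and SNORD53 the nonsense siRNA group lies above both others, whereas SNORD35A steps down from untreated to nonsense siRNA to YAP siRNA.

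How many members passed against nonsense siRNA turned on single arrays. Without nonsense siRNA replicate 1 the count was 0, beside 2.29% of all tested probe sets. Without nonsense siRNA replicate 2 it was 16, all lower, which is 8.08% of the members, beside 6.54% of all, so the calls over the whole array moved with this replicate too. It was 1 without YAP siRNA replicate 2, YAP siRNA replicate 3 or nonsense siRNA replicate 3. Of all tested probe sets 2.72%, 3.1% and 2.65% passed in these fits, in that order. The count was 2 without untreated replicate 2, beside 3.79% of all. Without nonsense siRNA replicate 2, untreated replicate 3 and YAP siRNA replicate 3 together it was 17, all lower, which is 8.59%, beside 6.84% of all. The median difference of the 198 members was -0.06 with all arrays and ranged from -0.09 to -0.03 when 1 array was left out. In RNA from whole cultures, fewer cells of a kind and less RNA per cell cannot be told apart.

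Nonsense siRNA was set against untreated cells to see how the control transfection and untreated cells differed. The nonsense siRNA group is shared with the comparison above, so the signs of the 2 comparisons are tied. Here the other SNORD set had a median difference of 0.11, with 55 of 69 above 0, against -0.02 over all tested probe sets. SNORA stood at 0.04, SCARNA at 0.05 and the repeated copies at -0.02. No member passed with limma, where 0.591% of all probe sets did, 0.262% as lower and 0.329% as higher. At an unadjusted p under 0.05 there were 30 members, 27 higher and 3 lower, beside 9.8% and 9.62% of all. The groups did not overlap for 15 members that were higher and 6 that were lower, beside 8.83% and 13.8% of all. Without nonsense siRNA replicate 2, 18 members (9.09%) passed, all higher, beside 7.67% of all. With nonsense siRNA replicate 2, untreated replicate 3 and YAP siRNA replicate 3 left out together 23 (11.6%) did, 19 higher and 4 lower, beside 12.3% of all. The members with the smallest adjusted p were the dimmer SCARNA9 probe set, given above, and SNORA2B. SNORA2B read 6.86, 6.85 and 6.70 untreated and 7.22, 6.98 and 7.10 after nonsense siRNA, groups that did not overlap, with a difference of 0.29 (limma adjusted p = 0.0711).

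YAP siRNA against untreated cells gave differences near 0 in every class. The median over the 198 members was -0.02, and 0.01 with array medians subtracted. By class the medians were -0.01 for the other SNORD set, with 38 of 69 below 0, -0.03 for SNORA and -0.04 for SCARNA, against -0.01 over all tested probe sets. SNORD35A, which guides methylation of 28S ribosomal RNA, was the 1 member that passed, as lower, where 2.96% of all probe sets passed, 1.44% as lower and 1.52% as higher. It read 8.75, 8.71 and 8.67 on the untreated arrays, 8.64, 8.58 and 8.58 after nonsense siRNA and 8.51, 8.50 and 8.53 after YAP siRNA. The 3 groups did not overlap. SNORD35A fell by 0.19 against untreated cells (SE 0.0499, limma adjusted p = 0.04996), just inside the threshold, and the call was lost in 8 of 9 fits without 1 array. Against nonsense siRNA its difference was -0.09 (adjusted p = 0.460), and nonsense siRNA against untreated cells gave -0.11 (adjusted p = 0.255). At an unadjusted p under 0.05 there were 7 members, 5 lower and 2 higher, beside 15.5% of all probe sets, 7.24% lower and 8.29% higher. Arrays of the groups did not overlap for 8 members that were lower and 3 that were higher, beside 10.3% and 9.91% of all.

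RefSeq positions placed 195 of the 198 members inside a longer gene, 104 different ones, found by span and without regard to strand. Genes named only by a LOC number were not used. For the 11 members inside more than 1 gene the shortest gene was kept, which need not be the host. SNORA7B, SNORD32B and SNORD13 lay in none. GAS5, a non-coding gene whose introns carry C/D box RNAs, held 7 members. SNORD44 read 8.64, 8.48 and 8.22 untreated, 8.97, 8.39 and 8.92 after nonsense siRNA and 8.74, 8.42 and 8.18 after YAP siRNA. It was high on nonsense siRNA replicates 1 and 3 and low on replicate 3 of the other groups, and nonsense siRNA replicate 2 lay inside the range of both other groups. The median deviation of the 7 was 0.35 and 0.29 on nonsense siRNA replicates 1 and 3 and -0.09 on replicate 2. SNORD74 had another order and read 9.88, 9.96 and 9.78 after nonsense siRNA and 10.05, 9.90 and 9.75 untreated. None of the GAS5 members passed in any comparison, and SNORD81 had the largest difference against nonsense siRNA at -0.35 (limma adjusted p = 0.187). GAS5 itself has no probe set with its symbol alone and was not analysed here.

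**Figure D5:**
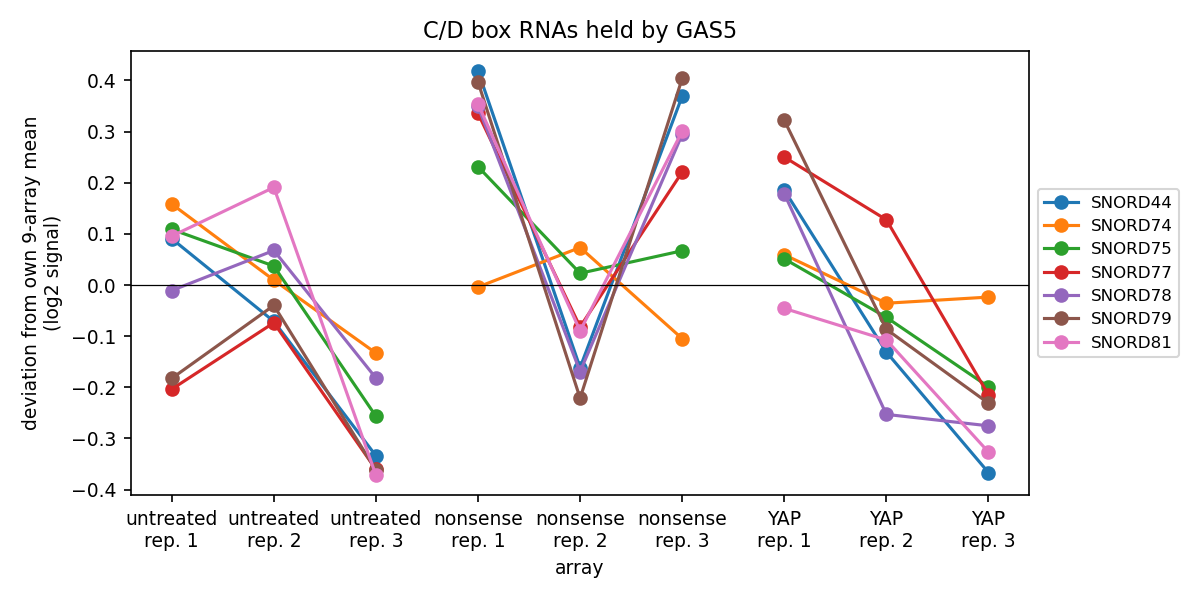
Deviation of log2 signal from the own 9-array mean for the 7 C/D box RNAs held by GAS5, array by array, with lines joining arrays of a group only to guide the eye. All but SNORD74 are high on nonsense siRNA replicate 1, all 7 are below their mean on untreated replicate 3, and the replicates of a group differ widely.

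Over the 104 holding genes, the median difference of a gene's members was below 0 against nonsense siRNA in 83 and above 0 for nonsense siRNA against untreated in 72, from comparisons that share the nonsense siRNA arrays. It ranged from -0.42 to 0.12 and from -0.17 to 0.40. The examples that follow, chosen after their values were seen, are among the larger. The RNAs in NCL, the gene of nucleolin, were SNORA75, SNORD20 and SNORD82, with a median difference of -0.26 against nonsense siRNA and 0.24 for nonsense siRNA against untreated. NCL itself differed by -0.10 (limma adjusted p = 0.501) and 0.11 (adjusted p = 0.341). SNORD45A, SNORD45B and SNORD45C in RABGGTB, which encodes a subunit of a Rab prenylating enzyme, had medians of -0.15 and 0.20, and SNORD28 and SNORD30 in SNHG1 had -0.16 and 0.17. SNORD28 carried the SNHG1 value: it read 9.25, 8.83 and 9.22 after nonsense siRNA, in the order of arrays seen for SNORD44, and SNORD30 read 9.09, 9.08 and 8.93.

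Of the 99 members whose holding gene has a probe set of its own, 68 had a difference of the same sign as that gene against nonsense siRNA, 73 for nonsense siRNA against untreated and 63 for YAP siRNA against untreated. Gene and member were read on the same arrays. Against nonsense siRNA the median difference was -0.09 over the 99 members and -0.04 over their 72 genes. For nonsense siRNA against untreated it was 0.08 and 0.07, and for YAP siRNA against untreated -0.004 and 0.01. Where both medians lie on the same side of 0, many signs would agree without any link, and no baseline was computed. RPS3 differed by 0.03 against nonsense siRNA (limma adjusted p = 0.899), where SNORD15B fell by 0.33. Its neighbour SNORD15A, in the same gene, differed by -0.06 (adjusted p = 0.725). CEP295, which holds SCARNA9, differed by -0.09 (adjusted p = 0.573), and WDR43, which holds SNORD53, by -0.07 (adjusted p = 0.674). Of 72 holding genes with a probe set of their own, 4 fell and 3 rose against nonsense siRNA, where 4.46% of all probe sets passed. With limma 0 passed for nonsense siRNA against untreated cells (0.591% of all), and after YAP siRNA 2 fell and 1 rose against untreated cells (2.96% of all). Against nonsense siRNA the genes that fell were AMMECR1, POLA1, PHLPP2 and NSD2, and those that rose SIPA1L1, POR and RAB30. The median differences of the 72 were -0.04, 0.07 and 0.01 in the order of the comparisons above.

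Transcripts of many host genes start with a run of pyrimidines, the 5′ terminal oligopyrimidine motif known from ribosomal protein genes. The stretches that follow show the start sites of 8 of the genes that hold members described here, chosen to show long and short runs. Each runs from 70 bases before to 30 bases from the annotated start, 5′ to 3′ on the gene's strand, from RefSeq promoters on GRCh38.p14, with capitals for the longest run of C and T within 5 bases of the start.
RPS3, chr11:75399448-75399547, plus strand: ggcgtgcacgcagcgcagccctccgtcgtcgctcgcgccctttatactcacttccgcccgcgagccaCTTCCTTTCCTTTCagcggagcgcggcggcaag
RPL13A, chr19:49487538-49487637, plus strand: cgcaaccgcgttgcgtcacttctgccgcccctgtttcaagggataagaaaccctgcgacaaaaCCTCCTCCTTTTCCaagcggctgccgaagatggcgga
RABGGTB, chr1:75786186-75786285, plus strand: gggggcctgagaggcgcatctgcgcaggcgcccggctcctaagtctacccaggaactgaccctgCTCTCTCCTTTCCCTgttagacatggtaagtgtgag
NCL, chr2:231464455-231464554, minus strand: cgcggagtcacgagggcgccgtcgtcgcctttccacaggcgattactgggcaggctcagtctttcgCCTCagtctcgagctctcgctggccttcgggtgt
GAS5, chr1:173869016-173869115, minus strand: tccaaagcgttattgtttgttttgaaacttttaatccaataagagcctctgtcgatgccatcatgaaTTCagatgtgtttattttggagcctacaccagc
CEP295, chr11:93661612-93661711, plus strand: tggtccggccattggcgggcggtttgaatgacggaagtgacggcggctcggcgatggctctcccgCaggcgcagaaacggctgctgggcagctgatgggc
WDR43, chr2:28894597-28894696, plus strand: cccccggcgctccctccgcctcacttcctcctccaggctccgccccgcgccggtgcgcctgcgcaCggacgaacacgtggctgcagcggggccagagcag
SNHG1, chr11:62855856-62855955, minus strand: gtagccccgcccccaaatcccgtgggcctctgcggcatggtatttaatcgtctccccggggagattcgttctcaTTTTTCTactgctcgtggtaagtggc
The run held 14 bases in RPS3, 14 in RPL13A and 15 in RABGGTB, against 7 in SNHG1, 4 in NCL, 3 in GAS5, 1 in CEP295 and 1 in WDR43. Of 88 holding genes in the promoter table, 30 (34.1%) had a run of at least 8 bases of C or T near the start, beside 3087 of 27305 promoters (11.3%). Some of these runs end before the start, as in RPL17 and SNHG29, so the count is not one of transcripts that begin with a run. A TATAAA within the 50 bases before the start, read on the gene's strand, was found in 4 of the 88 (4.55%), beside 2.93% of all. These matches describe letters at 1 annotated start a gene and show no binding or activity. That start need not be the one used in these cells, so a short run, as in GAS5, does not show that the transcript lacks the motif.

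RPL13A, a ribosomal protein gene, held 4 C/D box RNAs known from work on lipotoxic cell death, and they differed among themselves. SNORD33 read 10.68, 10.41 and 10.56 untreated, 10.73, 10.78 and 10.37 after nonsense siRNA and 10.67, 10.80 and 10.74 after YAP siRNA. Its nonsense siRNA replicate 3 was the lowest of the 9 arrays, the array on which the GAS5 members were high. The difference against nonsense siRNA was 0.11 for SNORD33, -0.09 for SNORD32A, -0.10 for SNORD34 and -0.09 for SNORD35A, and none of these passed. Members of 1 holding gene share their samples and are not replicates of each other.

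Some other members, picked after their values were seen, were also lowest on nonsense siRNA replicate 3. SCARNA17 read 10.95, 10.87 and 10.74 untreated, 10.78, 10.80 and 10.44 after nonsense siRNA and 10.82, 10.78 and 10.74 after YAP siRNA in its brighter probe set. SCARNA12, held by PHB2, read 8.78 on that array and between 9.11 and 9.33 on the other 8. SNORA71C, an H/ACA RNA in SNHG17, read 8.48 there and between 8.55 and 8.88 elsewhere. SNORD13 had yet another order. It takes part in acetylation of 18S ribosomal RNA and lies in no host gene, and it was highest on untreated replicate 1 at 9.45 and lowest on untreated replicate 2 at 8.94. None of SNORD33, SCARNA17, SCARNA12, SNORA71C and SNORD13 passed in any comparison.

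Among the H/ACA box RNAs 0 of 64 passed in any comparison, with 7 at an unadjusted p under 0.05 in limma against nonsense siRNA, 10 for nonsense siRNA against untreated and 3 for YAP siRNA against untreated. Of all probe sets, 4.46%, 0.591% and 2.96% passed and 15.6%, 19.4% and 15.5% were under that unadjusted p, in the same order. SNORA33, held by the ribosomal protein gene RPS12, had the largest difference against nonsense siRNA at -0.32 (limma adjusted p = 0.134). It read 7.10, 7.23 and 7.09 untreated, 7.49, 7.12 and 7.58 after nonsense siRNA and 7.26, 7.12 and 6.83 after YAP siRNA. Nonsense siRNA replicates 1 and 3 and YAP siRNA replicate 3 were the extremes. SNORA7B read 7.80, 7.997 and 7.76 after nonsense siRNA and 7.69, 7.47 and 7.63 after YAP siRNA, groups that did not overlap. SNORA57 and SNORA74A differed by 0.04 and -0.13 against nonsense siRNA. SNORA15 has 3 probe sets, and their differences against nonsense siRNA lay between -0.10 and -0.09.

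Among the Cajal body RNAs, SCARNA5 and SCARNA6 lie within ATG16L1 and differed by -0.00 and -0.10 against nonsense siRNA, and SCARNA10, held by NCAPD2, by -0.19 (limma adjusted p = 0.216). SCARNA7, held by KPNA4, read 9.18, 9.29 and 9.47 untreated, 9.59, 9.12 and 9.48 after nonsense siRNA and 9.17, 9.20 and 9.10 after YAP siRNA. Nonsense siRNA replicate 2 lay with the YAP siRNA arrays, and the difference was -0.24 (adjusted p = 0.245). SCARNA9L, a near copy of SCARNA9 that may share its probes, differed by -0.32 and -0.06 in its 2 probe sets. Its brighter probe set read 6.99 on YAP siRNA replicate 3 and 7.98 on nonsense siRNA replicate 1, the widest range of any member at 1.00, and neither probe set passed.

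The repeated C/D box RNAs of imprinted clusters showed no such pattern in their signals. All 46 lay below the lower quartile of the tested probe sets, where a change in the RNA could go unread. SNORD115 and SNORD116 copies lie in SNHG14, in the region lost in Prader-Willi syndrome, and SNORD113 and SNORD114 copies lie with MEG8. Copies of a family share sequence, so their probe sets may read each other's transcripts. By family the median signal was 5.74 for SNORD113 (2 probe sets), 5.89 for SNORD114 (4), 5.64 for SNORD115 (20) and 5.73 for SNORD116 (20). None of the 46 passed in any of the 3 comparisons, and at an unadjusted p under 0.05 in limma there were 0, 0 and 1. Of all probe sets 4.46%, 0.591% and 2.96% passed, and 15.6%, 19.4% and 15.5% were under the unadjusted p. SNORD116-1 read between 5.76 and 5.96 on the 9 arrays. SNORD116-15, the brightest copy, read 6.58, 6.44 and 6.58 untreated, 6.49, 6.58 and 6.53 after nonsense siRNA and 6.61, 6.62 and 6.72 after YAP siRNA. Its YAP siRNA arrays lay above all others, by a difference of 0.12 against nonsense siRNA (limma adjusted p = 0.327).

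Genes for proteins that bind and assemble these RNAs were set against nonsense siRNA, where 4.46% of all probe sets passed. Of the C/D box core and assembly genes, 12 of 15 were measured and ZNHIT6 alone passed. ZNHIT6 encodes a C/D particle assembly factor. It read 8.36, 8.38 and 8.40 untreated, 8.73, 8.45 and 8.74 after nonsense siRNA and 8.28, 8.25 and 8.12 after YAP siRNA. ZNHIT6 fell by 0.42 against nonsense siRNA (SE 0.0730, limma adjusted p = 0.00301). Its nonsense siRNA arrays also lay above all untreated arrays, by a difference of 0.26 (limma adjusted p = 0.105). Nonsense siRNA replicate 2 was the lowest of that group, as for SNORD44 and SCARNA9. YAP siRNA against untreated cells gave -0.16 (limma adjusted p = 0.297). All 6 H/ACA genes were measured and 0 passed.

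Of the Cajal body, transport and scaRNA factors, 18 of 19 were measured, and 2 fell and 1 rose against nonsense siRNA. NCBP1, a cap-binding subunit, fell by 0.37 (limma adjusted p = 0.00178) and NPAT, a factor of histone gene transcription, by 0.27 (adjusted p = 0.0228). NOLC1, the nucleolar and coiled body phosphoprotein Nopp140, read 9.34, 9.25 and 9.14 untreated, 8.87, 8.72 and 8.79 after nonsense siRNA and 9.33, 9.34 and 9.13 after YAP siRNA. The nonsense siRNA arrays lay below all others. NOLC1 rose by 0.48 against nonsense siRNA (SE 0.0689), fell by 0.45 between nonsense siRNA and untreated cells (adjusted p = 0.0115) and differed by 0.02 between YAP siRNA and untreated cells.

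Across the 9 arrays, the probe sets outside the members whose signal ran most like the member median were ATXN7L1, RBM26, CBX5, TTC3 and GFRA1, of 19262 compared. Pearson's r was 0.97, 0.97, 0.96, 0.95 and 0.94. Without untreated replicate 3 and YAP siRNA replicate 3 it was 0.86, 0.81, 0.83, 0.79 and 0.84 over 7 arrays. These genes were the highest of many, and the arrays share their scaling, so the values are a description.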

How the data were processed

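Total RNA of 9 samples was read on an Affymetrix human gene array. The deposited values are log2 signals; this was inferred from their range, and no source used here gives the authors' background correction, summarisation or scaling. Nothing further was done to them. Gene names come from an annotation table of the array: 19460 have 1 gene symbol, 1754 several and 12083 are not listed, and only the first were tested. With limma 3.58.1 in R 4.3.3, a model with a mean for each group was fitted over the 9 arrays (prior degrees of freedom 9.13). Their 3 differences were tested two-sided with the moderated test and adjusted by Benjamini-Hochberg over all tested probe sets. Every adjusted p of a gene is limma's, SE is that of the fitted difference, and a probe set passed at an adjusted p under 0.05. The fit was tested on simulated data.

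Holding genes and promoter stretches are from RefSeq (GRCh38.p14), which matched all 198 members. Members, gene lists and tests were chosen with earlier results of these data known. The naming rule took members that passed, the brightest and widest-ranging of each class and a set list. From that list SNORD44, SNORD13, SNORD116-1, SNORA74A, SCARNA5, SCARNA6 and SCARNA10 were measured alone. SNORD57, SNORD79 and SNORA71D were also picked by the rule and are not described singly. Listed RNAs such as SNORA73A and SCARNA2 were not analysed here. Other members and the start sites shown were chosen after their values were seen. Alternatives were other scalings, filters, variance models, array weights, fewer arrays, the replicate number as a block and a stricter threshold. A fit without the 2 arrays of lowest member level was added after seeing the data. Figures used Python 3.11.15, pandas 2.3.3 and matplotlib 3.10.9. The number of arrays limits the precision.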

Additional observations from a re-analysis of the deposited data

How the results depend on the processing

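Counts of members that passed moved with most alternatives, as did those over all probe sets. Percentages in brackets are shares of all tested probe sets that passed in the same fit. For YAP siRNA against nonsense siRNA (4 of 198), 1 member passed with array medians subtracted (3.63%) and 0 with all probe sets of the table tested (1.27%). An intensity trend and robust variance gave 2 (4.1%), array weights 17 (12.9%) and only the 6 arrays of the comparison 2 (3.9%). Without the 3 arrays that stood apart 17 passed (6.84%). Without the 2 arrays of lowest member level, a fit added after seeing the data, 1 passed (3.29%). At an adjusted p under 0.01 the count was 1 (2.13%). Leaving out 1 array gave 0 to 16 (2.29% to 6.54%). For nonsense siRNA against untreated (0), 1 passed with quantile normalization (0.704%), 21 with array weights (14.1%) and 23 without the 3 arrays that stood apart (12.3%). Here leaving out 1 array gave 0 to 18 (0.0565% to 7.67%). For YAP siRNA against untreated (1, lower), 0 passed with array medians subtracted (2.71%), all probe sets (0.616%) or trend and robust variance (2.79%). The count was also 0 with only the 6 arrays (3.06%) or an adjusted p under 0.01 (1.29%). Array weights gave 3 (9.09%), 1 higher and 2 lower. Without the 3 arrays that stood apart there were 7 (7.92%), 1 higher and 6 lower. In this comparison leaving out 1 array gave 0 to 1 (1.37% to 3.81%). Without YAP siRNA replicate 3 the 1 member that passed was higher, not lower. Among probe sets at or above the median signal the median member difference was -0.095 against nonsense siRNA and 0.080 for nonsense siRNA against untreated. Over the alternatives the median member difference ranged from -0.095 to -0.033 against nonsense siRNA (-0.058 as reported), from 0.012 to 0.080 for nonsense siRNA against untreated (0.026) and from -0.047 to 0.007 for YAP siRNA against untreated (-0.02), 0.007 being with array medians subtracted. The cause was not tested, except that testing all probe sets adjusts over more of them.

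Same-numbered arrays did not regularly deviate together (r from -0.33 to 0.35 over 9 pairs, 3 of them over 0.1). Of 9 arrays, 5 were closest to an array of their own number. These values cannot settle whether the numbers pair the samples. With the replicate block 4, 0 and 0 members passed in the 3 comparisons, beside 4.21%, 0.319% and 2.62% of all probe sets. Of the values for single members under the alternatives, 51 lost a call, 51 gained one and 83 without a call moved by at least their SE. The other 1804 kept their call, or had none and moved by less than their SE. Direction was compared only where either fit made a call, and 0 of those values reversed.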

Other observations

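A further 76 probe sets carry a member's symbol together with other symbols and were left out of the comparisons above. Tested with all 33297 probe sets of the table in limma, 1 of them fell and 0 rose for YAP siRNA against nonsense siRNA, where 1.27% of all passed, and 4 had an unadjusted p under 0.05. For nonsense siRNA against untreated cells 0 passed, where 0 of all 33297 did, with 9 at an unadjusted p under 0.05. For YAP siRNA against untreated cells 0 passed, beside 0.616% of all, with 6 under the unadjusted p. The share of all 33297 under that unadjusted p was not counted. Among the 19460 with 1 symbol, in their own fit, it was 15.6%, 19.4% and 15.5%. The median log2 differences of the 76 were -0.04, 0.03 and -0.01. These 76 can hold signal of a host gene as well as of the small RNA, so no single gene is named for them.

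Other small non-coding RNAs, such as spliceosomal RNAs, Y RNAs and vault RNAs, numbered 49 probe sets apart from the microRNAs. None passed in any of the 3 comparisons with limma, where 4.46%, 0.591% and 2.96% of all probe sets did. At an unadjusted p under 0.05 there were 2 lower, 1 higher and 10 lower, in the order of the comparisons above. Of all probe sets 7.7%, 9.8% and 7.24% were under it in those directions, and 15.6%, 19.4% and 15.5% in either. The median differences of the 49 were -0.03, -0.02 and -0.04. On nonsense siRNA replicates 1 to 3 their median deviation was 0.04, 0.04 and -0.03, with 33, 34 and 13 of 49 above their own mean.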
